A study of Mus musculus with 8 samples.

Results

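Axon guidance ligands and receptors are described here in muscle stem cells: the semaphorins with their neuropilin and plexin receptors, the netrins and their receptors, the repulsive guidance molecules, Draxin, the slits and robos, and the ephrins with their Eph receptors. Genes were taken by symbol from the deposited count table, and 74 of its 27554 genes carried a matching name. A gene was kept when its counts over the 8 libraries summed to at least 15, which left 58 genes and set 16 aside. The members were thus chosen by name and by total count, and the total is given as a description only. Just inside the limit lay Sema4g with 15 counts, Epha3 with 16 and Sema5b with 17. Just outside lay Sema4f with 13 counts, and Efna3, Epha5 and Robo2 with 12 each. Among the 58, Unc50 matched the Unc5 pattern by its letters alone and is no guidance receptor. It stays in the counts below because the rule took it.

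The study sorted muscle stem cells by flow cytometry from hindlimb muscle of mice that carry reporters for Pax7, the transcription factor that defines these cells, and Myf5, an early factor of the muscle lineage. All 4 groups were C57BL/6NTac mice with the allele Pax7tm3955(T2A-ZsGreen)Tac and the allele Myf5tm3956(T2A-E2Crimson)Tac, and no treatment is recorded for any of them. The groups were Myf5High and Myf5Low cells, which are Pax7-positive cells with the strongest and the weakest E2Crimson signal, each from female and from male mice. Each group had 2 libraries, and each library came from a pool of 4 mice, so values of single animals are not seen. The age of the mice and the number of copies of each reporter allele are not given in the sources used here. The groups are fractions of one reporter signal, so a Myf5Low cell is a cell with little E2Crimson and not a cell without Myf5.

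Guidance ligands are secreted or held on the membrane, and they steer moving cells and growing axons by attracting or repelling them through receptors that act on the actin skeleton. Class 3 semaphorins bind a neuropilin paired with a plexin, netrins bind neogenin, DCC and the UNC5 proteins, slits bind robos, and ephrins bind Eph receptors on the neighbouring cell. In skeletal muscle, several of these families are known from motor axon targeting, from blood vessels and from the movement of muscle stem cells.

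Counts assigned to genes ranged from 3140361 to 4238427 per library, and the 58 genes took between 0.198% and 0.243% of them. Levels are normalised CPM, the usual depth-scaled count with libraries put on one scale by the TMM method, and 3 counts corresponded to 0.671 to 0.985 CPM. A single gene entry, Gm42418, took 20.1% to 28.8% of gene counts, and what RNA these reads came from was not examined. Pax7 stood between 999 and 1496 CPM in all 8 libraries, so every library carried the defining marker of muscle stem cells. Myf5 rose in Myf5High over Myf5Low by 1.19 on the log2 scale (SE 0.265, adjusted p 0.0284, edgeR), although male Myf5High replicate 2, at 39.4 CPM, lay within the Myf5Low range of 24.96 to 49.8 CPM. Replicates of a group differed by more than sampling noise, at a chi-square of 8.42 to 25.8 per degree of freedom over genes.

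Of the 58 genes, 49 had enough counts for testing. The other 9, Sema3d, Sema4a, Sema4d, Sema4g, Sema5b, Epha3, Epha7, Ephb2 and Unc5a, reached at most 3.34 CPM in any library. A gene is described as called when edgeR's quasi-likelihood test gave it an adjusted p under 0.05, after Benjamini-Hochberg over the 11730 genes tested. Between Myf5High and Myf5Low, 2 of the 49 were called, Draxin and Sema3b, both higher in Myf5High, beside 1.2% of all genes called (0.767% higher and 0.435% lower). Between females and males, Draxin and Ntn4 were called, both lower in females, beside 1.65% of all genes (0.733% higher and 0.921% lower). The remaining ligands and receptors passed in neither of these comparisons. Because Draxin and Sema3b were put forward with earlier results of these libraries known, their calls are not independent evidence.

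Draxin encodes a secreted repulsive guidance protein that binds the netrin receptors, chiefly DCC, and can dampen Wnt signalling. The gene (ENSMUSG00000029005) lies on chromosome 4 from 148098437 to 148130698 on the minus strand of GRCm38. Its promoter is printed because Draxin had the largest difference between the fractions among the tested guidance genes. The stretch holds the 200 bases before the gene's start, from chr4:148130699-148130898 on the minus strand, after RefSeq on GRCm38.p6. Capitals mark CAGCTG, an E-box, the class of site that MYF5 and other muscle basic helix-loop-helix factors are known to bind.
Draxin promoter: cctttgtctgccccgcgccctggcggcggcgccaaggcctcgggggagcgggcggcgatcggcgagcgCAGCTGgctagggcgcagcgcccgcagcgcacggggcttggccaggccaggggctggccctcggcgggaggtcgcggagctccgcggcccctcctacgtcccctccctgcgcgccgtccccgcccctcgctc
The match begins 132 bases before the start. CAGCTG reads the same on both strands, and stretches of this length held it in 10.9% of all 32851 RefSeq promoters. Among 65 promoters of the 50 members matched by symbol, 8 held it, or 12.3%, those of Draxin, Ephb3, Ntn5, Robo4, Sema4d, Sema4g, Sema6c and Sema7a. A second E-box, CAGGTG on either strand, was in 13.9% of all promoters and in 7 of the 65, or 10.8%, and was not found in the Draxin stretch. A match is a description of the letters only, and no binding was measured.

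Draxin RNA was high in all Myf5High libraries of both sexes and nearly missing from female Myf5Low cells. In female Myf5High it stood at 99.4 and 134.7 CPM, and in female Myf5Low at 4.11 and 2.58 CPM, which rest on 15 and 11 counts. In male Myf5High it stood at 104.5 and 173.7 CPM, and in male Myf5Low at 38.7 and 32.2 CPM. All 4 Myf5High libraries thus lay above all 4 Myf5Low libraries, and male Myf5Low lay between the other groups, clear of them on both sides. The Myf5High mean was 128 ± 34.1 CPM and the Myf5Low mean 19.4 ± 18.7 CPM (SD, n = 4 each). The difference was 3.55 on the log2 scale (SE 0.264, adjusted p 2.97e-07, edgeR), and it stayed past the threshold under all 13 other settings, between 3.34 and 3.72. In bulk libraries, fewer cells of a kind and less RNA per cell cannot be told apart.

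The Draxin difference was called in each sex, with the larger estimate in females. In females it was 5.13 on the log2 scale (SE 0.412, adjusted p 1.04e-06, edgeR), where Draxin was the 1 guidance gene called and 0.332% of all genes were (0.196% higher and 0.136% lower). In males it was 1.97 (SE 0.33, adjusted p 0.0157, edgeR), again the 1 guidance gene called, beside 0.171% of all genes (0.119% higher and 0.0512% lower). The male call was lost without male Myf5Low replicate 1 (difference 2.12) or replicate 2 (1.84), where that group kept a single library. It was also lost when the 4 male libraries were fitted alone (1.98, adjusted p 0.114, edgeR). Over 14 settings the log2 difference stayed between 1.56 and 2.29.

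The difference between the sexes in this effect, the interaction, was 3.16 on the log2 scale (SE 0.512), with an adjusted p of 0.0908 in edgeR, and it was not called. No gene of the 11730 was called for the interaction, a share of 0%, while 533 had an unadjusted p under 0.05, among them the guidance genes Draxin and Sema4c. For Draxin the interaction passed with no filter on low counts (3.15, adjusted p 4.65e-06), in DESeq2 (3.16, adjusted p 0.000396), and without male Myf5High replicate 1 (2.84, adjusted p 0.0414) or replicate 2 (3.58, adjusted p 0.00638). Over its 13 settings the estimate kept its sign, between 2.83 and 3.58, and the adjusted p ran from 4.65e-06 to 1.

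Seen within a fraction, Draxin separated the sexes in the Myf5Low cells. Female Myf5Low fell below male Myf5Low by 3.41 on the log2 scale (SE 0.403, adjusted p 0.000158, edgeR), and the libraries did not overlap. Draxin was the 1 guidance gene called there, beside 0.205% of all genes (0.0597% higher and 0.145% lower in females), and the call held under all 12 settings. In Myf5High the libraries of the sexes overlapped, with a difference of -0.25 (SE 0.316, adjusted p 0.831, edgeR). Averaged over the fractions, Draxin was lower in females, with a difference of -1.83 (SE 0.256, adjusted p 0.000674, edgeR). In that fit both fractions of a pool entered as separate libraries, so its p-value does not measure the spread between pools alone. Summing the counts of both fractions of a pool first let each pool enter once, and gave the abundant Myf5High RNA more weight. The Draxin difference was then -0.50 with an adjusted p of 0.345 in edgeR, and it was not called. Over 14 settings the adjusted p ran from 4.56e-10 to 0.345.

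**Figure D1:**
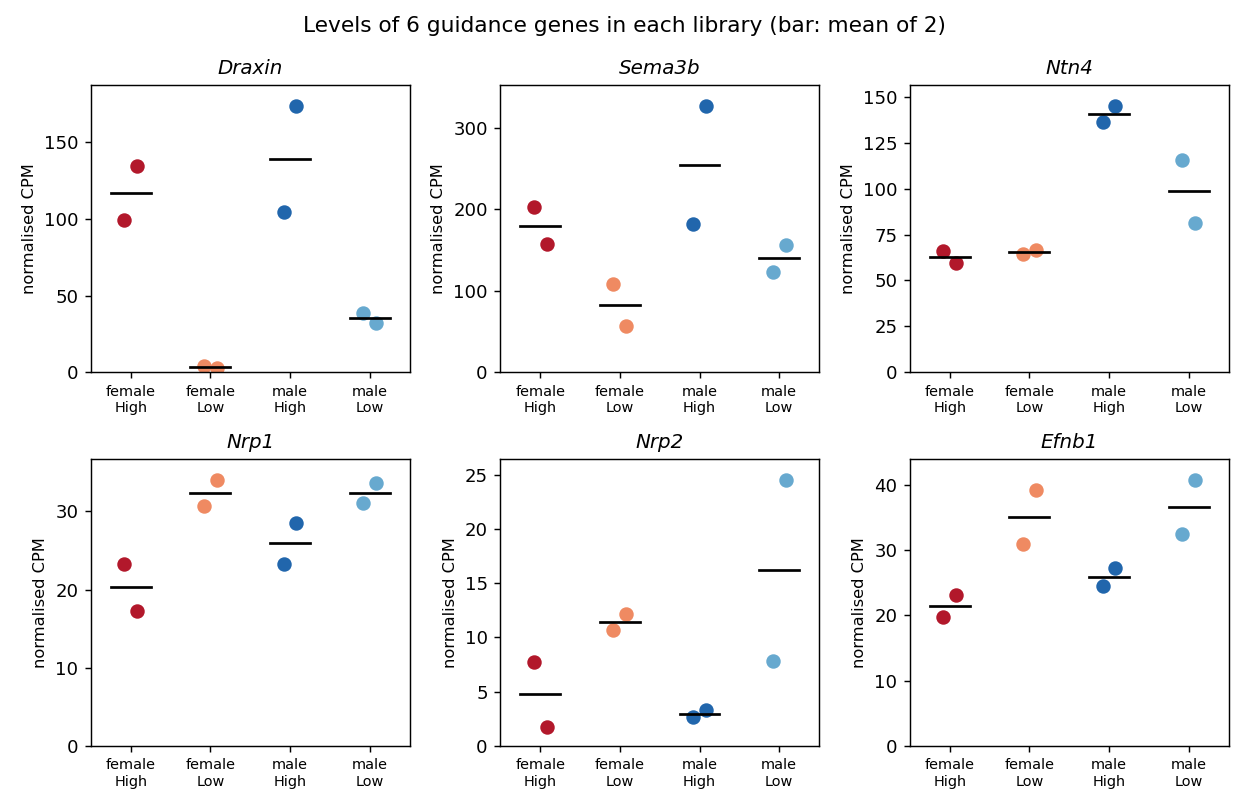
Normalised CPM of Draxin, Sema3b, Ntn4, Nrp1, Nrp2 and Efnb1 on linear axes from 0, with 1 point per library and a bar at the mean of the 2 libraries of a group. Draxin is at 4.11 and 2.58 CPM in female Myf5Low and at 99.4 CPM or more in every Myf5High library, and Ntn4 is at 66.9 CPM or less in every female library and at 81.5 CPM or more in every male library.

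Sema3b encodes a secreted class 3 semaphorin, a repellent that acts through neuropilins and class A plexins. The gene (ENSMUSG00000057969) lies on chromosome 9 from 107597674 to 107609229 on GRCm38. It stood at 202 and 158 CPM in female Myf5High against 109 and 57.0 CPM in female Myf5Low. In males it stood at 182 and 327 CPM in Myf5High against 122.5 and 157 CPM in Myf5Low. The fractions only just failed to overlap, since female Myf5High replicate 2, at 157.6 CPM, was next to male Myf5Low replicate 2, at 156.6 CPM. Sema3b was higher in Myf5High by 0.99 on the log2 scale (SE 0.235, adjusted p 0.0439, edgeR), with means of 217 ± 75.2 and 111 ± 41.4 CPM (SD, n = 4 each).

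The Sema3b call rested on most of the libraries together. It was lost without female Myf5High replicate 1 (adjusted p 0.19) or replicate 2 (0.0522), female Myf5Low replicate 2 (0.246), male Myf5High replicate 2 (0.0939), or male Myf5Low replicate 1 (0.14) or replicate 2 (0.058). Over 13 settings the log2 difference stayed between 0.75 and 1.26, with adjusted p from 0.000195 to 0.246 in edgeR or DESeq2. Within females the difference was 1.12 (adjusted p 0.241, edgeR) and within males 0.86 (adjusted p 0.566, edgeR), so neither sex passed alone. The interaction was 0.26 (SE 0.466, adjusted p 1, edgeR), and it turned to -0.16 without female Myf5Low replicate 2 and to -0.11 without male Myf5High replicate 1.

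The neighbouring genes were looked at because a domain of the chromosome can change together. Within 100 kb of Sema3b, 13 genes were tested and 1 was called between the fractions, beside 1.2% of all genes. It was Slc38a3, a glutamine transporter 41.4 kb away, higher in Myf5High by 1.21 (SE 0.245, adjusted p 0.0139, edgeR). The 13 log2 differences ran from -1.80 to 1.30 (median -0.06), and a shared change of the domain was not tested. Sema3f, another class 3 semaphorin 72.3 kb from Sema3b, had a difference of -0.34 (SE 0.499). Around Draxin 7 genes were tested within 100 kb, and none was called between the fractions in edgeR, with log2 differences from -0.58 to 0.61. For female against male in Myf5Low the same 7 genes had differences from -0.45 to 1.53 (median 0.42), and the 1 gene tested within 100 kb of Ntn4 had 1.44 between the sexes, with none of these called in edgeR.

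The other semaphorins were spread from barely detected to abundant, and with all libraries none besides Sema3b was called between the fractions and none between the sexes. Of the 13 tested semaphorins, Sema3b included, 3 had a positive difference between the fractions, Sema3b, Sema4b and Sema4c, with a median of -0.55 against -0.02 over all genes tested. Sema6a, a transmembrane semaphorin that binds class A plexins, had a mean level per length of RNA of 35.1 FPKM beside 34.4 FPKM for Sema3b. Sema3b lay above it in Myf5High (45.5 against 34.2 FPKM) and below it in Myf5Low (23.3 against 36.1 FPKM). FPKM here is normalised CPM per kilobase of exon. Sema6a stood at 282 and 342 CPM in female Myf5High, at 316.5 and 360 CPM in female Myf5Low, at 319 and 256 CPM in male Myf5High, and at 264 and 328 CPM in male Myf5Low. Its groups overlapped throughout, with a difference of -0.08 between the fractions (SE 0.176, adjusted p 0.96, edgeR).

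Sema4c, a transmembrane semaphorin known as a ligand of plexin B2, stood at 95.9 and 73.2 CPM in female Myf5High against 32.4 and 53.7 CPM in female Myf5Low. In males it stood at 77.9 and 86.7 CPM in Myf5High and at 117 and 62.4 CPM in Myf5Low. The female fractions did not overlap and the male fractions did. Neither the female difference (0.97, SE 0.345, adjusted p 0.419, edgeR) nor the interaction (1.10, SE 0.482, adjusted p 1, edgeR) was called. Exons of Sema4c overlap a gene on the other strand, and no strand setting of the counting is given in the sources used here, so its counts are uncertain, as are those of 10 other members.

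Sema3f was low in all female libraries and higher in all male ones. It stood at 5.17, 3.05, 4.94 and 3.99 CPM in the 4 female libraries and at 11.99, 5.58, 11.6 and 14.3 CPM in the 4 male libraries, with Myf5High given first in each sex. The sexes did not overlap, but the gap was narrow, and the difference of -1.32 (SE 0.502, adjusted p 0.231, edgeR) was not called. The class 3 member Sema3a, a known repellent of motor axons made by activated muscle stem cells, reached 8.78 CPM in female Myf5Low replicate 1 and at most 5.85 CPM elsewhere. Sema3e was outside the set with 1 count in all.

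The neuropilins, the ligand-binding receptors of class 3 semaphorins, had the opposite order between the fractions from Sema3b. Nrp1 (chromosome 8, 128358604 to 128503363, GRCm38) stood at 23.2 and 17.3 CPM in female Myf5High against 30.7 and 34.0 CPM in female Myf5Low. In males Nrp1 stood at 23.3 and 28.6 CPM in Myf5High against 31.1 and 33.6 CPM in Myf5Low. All Myf5High libraries lay below all Myf5Low libraries, yet the difference of -0.50 (SE 0.261, adjusted p 0.595, edgeR) was not called.

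Nrp2 (chromosome 1, 62703285 to 62818695, GRCm38) was scarcer. It stood at 7.75 and 1.78 CPM in female Myf5High, at 10.7 and 12.2 CPM in female Myf5Low, at 2.64 and 3.28 CPM in male Myf5High, and at 7.83 and 24.5 CPM in male Myf5Low. The fractions did not overlap, although female Myf5High replicate 1 and male Myf5Low replicate 1 nearly met. The difference of -1.87 (SE 0.546, adjusted p 0.141, edgeR) was not called. It passed with no filter on low counts (adjusted p 0.0221), within a range of 0.0221 to 0.613 over 12 settings.

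In all, 5 of the 49 tested genes had fractions that did not overlap: Draxin and Sema3b on the high side, and Nrp1, Nrp2 and Efnb1 on the low side. The same held for 4.58% of all genes, 2.36% on the high side and 2.22% on the low side. The median difference of the 49 was -0.08 on the log2 scale against -0.02 for all genes, and 20 of the 49 were positive.

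Nrp1, Nrp2, Robo4 and Sema3g are also made by the lining cells of blood vessels, so the endothelial marker list is given beside them. Without the member Robo4, the 11 other endothelial genes summed to 403 and 331 CPM in female Myf5High, to 462 and 586 CPM in female Myf5Low, to 663 and 647 CPM in male Myf5High, and to 596 and 1053 CPM in male Myf5Low. Their sum was highest in male Myf5Low replicate 2, and female Myf5Low replicate 2 was the highest of the female libraries. Of the full list, 0 of 12 genes were called between the fractions in edgeR, and 4 had an unadjusted p under 0.05, beside 1098 of all 11730 genes. The difference was positive for 1 of the 12, and the median was -0.57, the sign that Nrp1, Nrp2, Robo4 and Sema3g also had. The part of the endothelial list in the values of these 4 genes was not tested.

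Robo4, the endothelial member of the slit receptors, stood at 11.6 and 2.80 CPM in female Myf5High, at 7.95 and 18.3 CPM in female Myf5Low, at 8.15 and 4.60 CPM in male Myf5High, and at 7.60 and 23.6 CPM in male Myf5Low. Sema3g, a class 3 semaphorin of vessels, stood at 3.55 and 6.61, 3.84 and 26.5, 16.8 and 11.2, and 5.14 and 22.6 CPM in the same order of groups. Both were highest in Myf5Low replicate 2 of each sex, where the endothelial sums were highest within that sex, and neither was called. The same libraries were the highest of their sex for Nrp1 (34.0 CPM in females and 33.6 CPM in males). They were also the highest for Nrp2 (12.2 CPM in females and 24.55 CPM in males).

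Plexins are the signalling receptors of the semaphorins. Of 9 plexins, 8 were members, with a median difference of -0.08 between the fractions. Called were 0 of 8 between the fractions, beside 1.2% of all genes, and 0 of 8 between the sexes, beside 1.65%. At such shares 0 calls among so few genes does not set the family apart. Plxnd1, the receptor of Sema3e, was the most abundant at 33.0 FPKM, with 253, 310, 254 and 231 CPM in the female libraries and 238, 195, 235 and 213 CPM in the male ones. Plxna2, a receptor of Sema6a, followed at 8.99 FPKM, with 127 to 172 CPM in females and 139 to 177 CPM in males. For both genes the fractions overlapped, and so did the sexes. Plxnb3, with 5 counts, was outside the set.

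**Figure D2:**
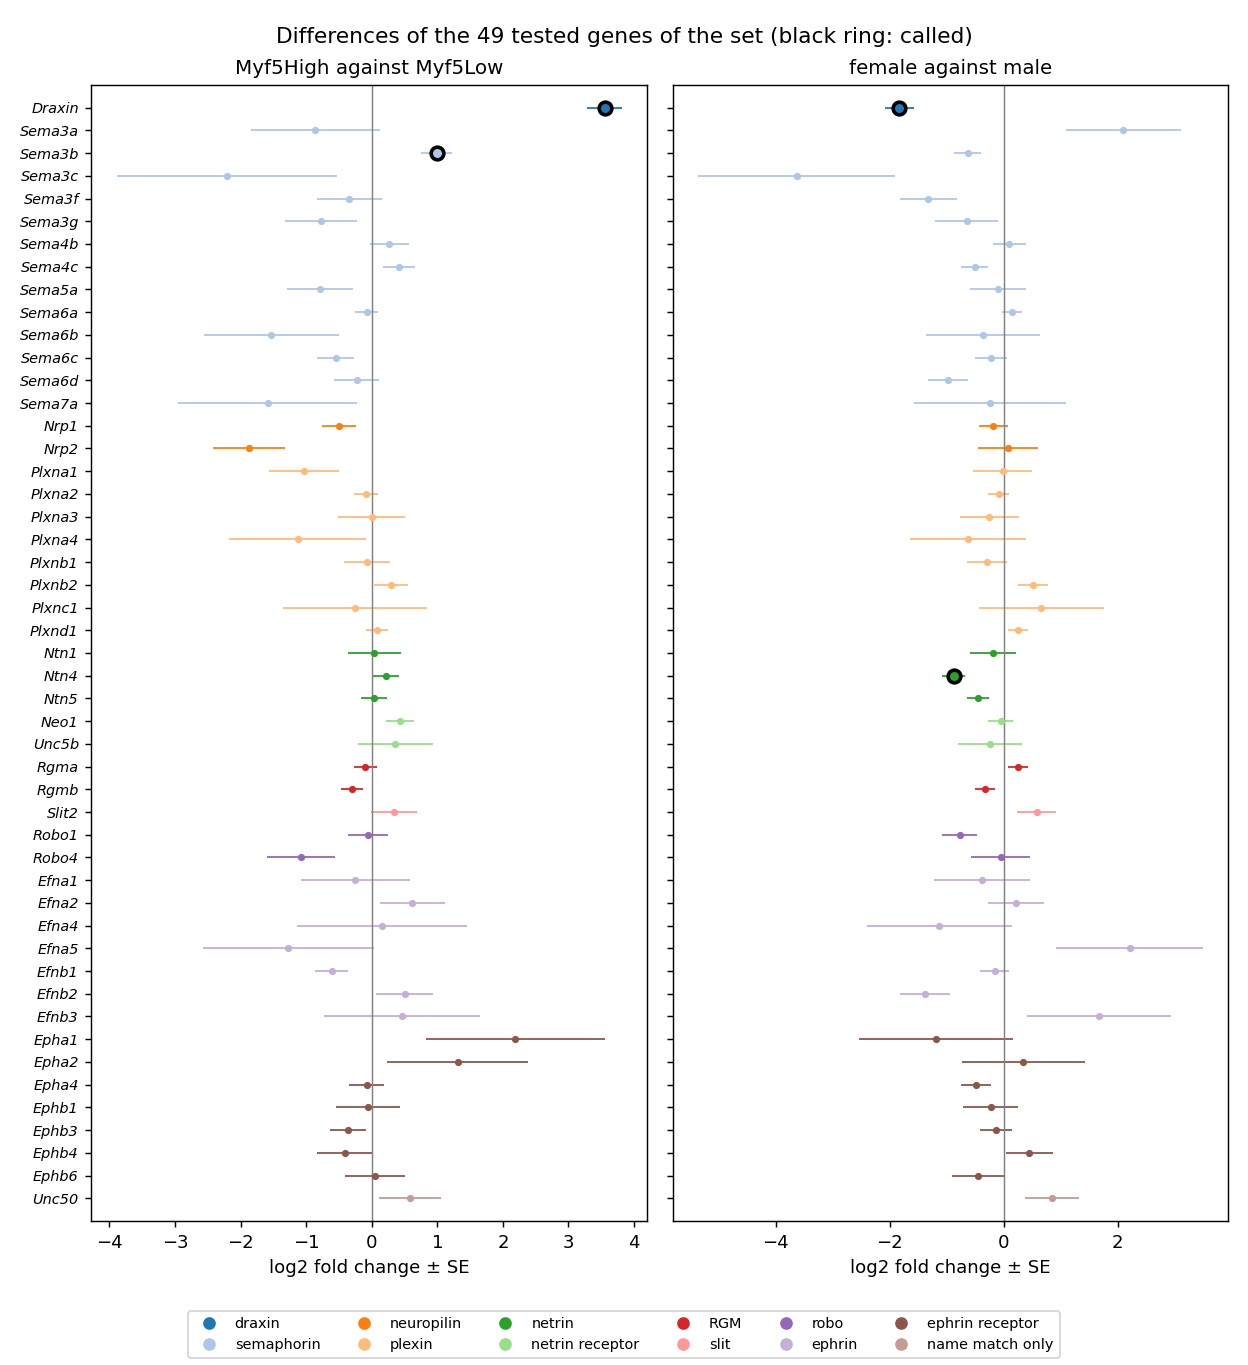
Log2 differences with SE of the 49 tested genes, Myf5High against Myf5Low on the left and female against male on the right, coloured by family, where a black ring marks a called gene. Draxin (3.55) and Sema3b (0.99) carry rings on the left and Draxin (-1.83) and Ntn4 (-0.88) on the right, and Sema3c has the widest error bars (SE 1.68 on the left and 1.73 on the right).

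Among the netrins, Ntn4 differed between the sexes. Ntn4 is a secreted netrin of basement membranes that binds laminin, and the gene (ENSMUSG00000020019) lies on chromosome 10 from 93640681 to 93747207 on GRCm38. Female Myf5High had 65.9 and 59.7 CPM, and female Myf5Low 64.5 and 66.9 CPM. In males it stood at 136 and 145 CPM in Myf5High and at 116 and 81.5 CPM in Myf5Low. The female libraries lay close together, and every male library lay above every female one. The 4 female libraries averaged 64.2 ± 3.16 CPM and the 4 male libraries 120 ± 28.3 CPM (SD), and the difference was -0.88 on the log2 scale (SE 0.196, adjusted p 0.0278, edgeR).

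The Ntn4 call was lost without female Myf5High replicate 1 (adjusted p 0.0998) or replicate 2 (0.146), female Myf5Low replicate 1 (0.0723) or replicate 2 (0.103), or male Myf5Low replicate 1 (0.145). Over 14 settings the difference stayed between -0.99 and -0.75, with adjusted p from 0.0018 to 0.146. In the main fit both fractions of a pool entered as separate libraries. Among the 14 settings was a fit with the counts of each pool summed, so that each pool entered once. There the difference was -0.86 with an adjusted p of 0.0404 in edgeR. Within Myf5High it was -1.16 (SE 0.279, adjusted p 0.073, edgeR) and within Myf5Low -0.59 (SE 0.276, adjusted p 0.688, edgeR). In Myf5High 0 of the 49 genes were called, beside 0.512% of all genes (0.298% higher and 0.213% lower in females). An unadjusted p under 0.05 was found there for 5 of the 49 and for 1325 of all 11730 genes, a like share. No filter on low counts (adjusted p 0.0156) and DESeq2 (0.00626) called Ntn4 there, within a range of 0.00626 to 0.432.

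In all, 3 of the 49 genes had sexes that did not overlap, Ntn4, Sema3f and Efnb2, each lower in females, beside 7.08% of all genes (3.59% higher and 3.5% lower). The median difference of the 49 was -0.23 against -0.02 for all genes, with 15 positive. The number of members called between the sexes rose from 2 to 4 (of 52 then tested) without male Myf5High replicate 1, while calls over all genes rose from 194 of 11730 to 558 of 12457. The added members were Sema3b (-0.81, adjusted p 0.0382, edgeR) and Robo1 (adjusted p 0.0497, edgeR). Without female Myf5Low replicate 1 the count stayed at 2, with Ntn4 lost and Sema6d, a transmembrane semaphorin, called (-1.59, adjusted p 0.0274, edgeR). With all libraries Sema3b had -0.63 (adjusted p 0.22), Robo1 -0.77 (adjusted p 0.251) and Sema6d -0.97 (adjusted p 0.201) in edgeR. For Sema3b the adjusted p ran from 0.0382 to 0.628 over its settings. The endothelial list with Robo4 summed to 334 to 604.5 CPM in females against 603 to 1077 CPM in males, and 1 of its 12 genes, Egfl7, was called lower in females (-1.06, SE 0.185, adjusted p 0.00493, edgeR). Of these 12 genes, 6 had an unadjusted p under 0.05, beside 1630 of all 11730 genes, and 1 was positive (median -0.69), the sign of Efnb2, Ntn4 and Sema3f. Of the commitment list, 2 of 12 genes were called, beside 1.65% of all genes, while its sums overlapped. They were Mef2c (-1.30, adjusted p 0.049, edgeR) and Myh3 (-5.35, adjusted p 0.0279, edgeR), both lower in females. In edgeR 7 of the 12 had an unadjusted p under 0.05, beside 1630 of all 11730 genes, and 5 were positive (median -0.43). Of the fibro-adipogenic list, 0 of 8 genes were called in edgeR, 3 had an unadjusted p under 0.05 and 0 were positive (median -0.45), with sums of 1014 to 1805 CPM in females and 1304 to 2410 CPM in males. The part of these lists in the sex differences of the guidance genes was not tested.

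Ntn5 had the highest level per length of the whole set, at 126 FPKM. It stood at 216, 237, 289 and 201 CPM in the female libraries and at 256, 431, 317 and 282 CPM in the male ones. The pooled fractions overlapped, and so did the pooled sexes, although both female Myf5High libraries lay below all 4 male ones. Neither the fraction difference (0.04, SE 0.198) nor the sex difference (-0.45, SE 0.198, adjusted p 0.314, edgeR) was called. Its exons overlap Sec1 on the other strand, so its counts are uncertain, as are those of Sema4c. Ntn1, the classical netrin, was scarce at 6.31 to 13.9 CPM.

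Of the netrin receptors, Neo1 was the one that was well detected. Neo1 encodes neogenin, which also binds the repulsive guidance molecules. It stood at 71.7 and 71.2 CPM in female Myf5High against 38.1 and 54.9 CPM in female Myf5Low, and at 74.8 and 55.5 CPM in male Myf5High against 49.9 and 59.8 CPM in male Myf5Low. The fractions overlapped through the male libraries, and the difference of 0.43 (SE 0.22, adjusted p 0.576, edgeR) was not called. Unc5b stood at 3.61 to 9.83 CPM over all libraries. Dcc, the receptor that Draxin is best known to bind, had 1 count in the whole table, and Unc5c had 0 and Unc5d 1.

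Rgma and Rgmb, membrane-anchored molecules that bind neogenin and act as co-receptors for bone morphogenetic proteins, were both well expressed. Rgma stood at 182 to 218 CPM in females and at 153 to 208 CPM in males, and had 33.6 FPKM. Rgmb, at 20.3 FPKM, stood at 124 and 135.5 CPM in female Myf5High, at 152 and 136 CPM in female Myf5Low, at 144 and 150 CPM in male Myf5High, and at 210 and 193 CPM in male Myf5Low. Male Myf5Low was thus the highest group, but the fraction difference of -0.30 (SE 0.174, adjusted p 0.675, edgeR) and the sex difference of -0.33 (SE 0.174, adjusted p 0.411, edgeR) were not called.

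Of the slits and their receptors, 1 of 3 slits and 2 of 4 robos were members. Slit2, a secreted repellent, stood at 23.9 and 22.4 CPM in female Myf5High, at 16.2 and 14.1 CPM in female Myf5Low, at 8.39 and 17.4 CPM in male Myf5High, and at 10.1 and 14.3 CPM in male Myf5Low. The difference between the fractions was 0.34 (SE 0.345) and that between the sexes 0.58 (SE 0.345, adjusted p 0.484, edgeR), neither of them called. Robo1, a receptor of Slit2, stood at 17.1 to 30.7 CPM in females and at 25.2 to 53.5 CPM in males, and the sexes overlapped.

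Ephrins are ligands held on the membrane. Of 7 tested, 0 were called, beside 1.2% of all genes between the fractions and 1.65% between the sexes. The median of the 7 was 0.16 between the fractions. Efnb1 (chromosome X, 99136130 to 99148991, GRCm38), a transmembrane ephrin at 8.61 FPKM, stood at 19.7 and 23.1 CPM in female Myf5High against 31.0 and 39.2 CPM in female Myf5Low. In males Efnb1 stood at 24.5 and 27.2 CPM in Myf5High against 32.4 and 40.8 CPM in Myf5Low. Every Myf5Low library lay above every Myf5High library, and the difference of -0.61 (SE 0.255, adjusted p 0.425, edgeR) was not called.

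Efnb2, the ephrin of arteries that also binds EphB4, stood at 10.98 and 3.56 CPM in female Myf5High, at 3.29 and 9.15 CPM in female Myf5Low, at 26.1 and 20.4 CPM in male Myf5High, and at 11.6 and 14.8 CPM in male Myf5Low. All male libraries lay above all female ones, the closest pair being 11.6 and 10.98 CPM. The difference of -1.38 (SE 0.441, adjusted p 0.143, edgeR) was not called, and it passed with no filter on low counts (adjusted p 0.0422), within a range of 0.0422 to 0.403 over 13 settings. Efna2, an ephrin with a lipid anchor, stood at 4.69 to 16.3 CPM.

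Eph receptors are the tyrosine kinases that ephrins activate. Of 14 in the table, 10 were members and 7 were tested. Of these, 0 were called, beside 1.2% of all genes between the fractions and 1.65% between the sexes. Ephb3 was the most abundant at 7.92 FPKM. It stood at 30.4 and 45.5 CPM in female Myf5High against 66.9 and 60.3 CPM in female Myf5Low, and at 35.5 and 74.2 CPM in male Myf5High against 36.4 and 71.7 CPM in male Myf5Low. The female fractions did not overlap, the male fractions did, and the difference was -0.36 (SE 0.278, adjusted p 0.808, edgeR). Epha4, which binds ephrins of both classes, stood at 21.9 to 48.6 CPM over the 8 libraries, at 4.20 FPKM.

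**Figure D3:**
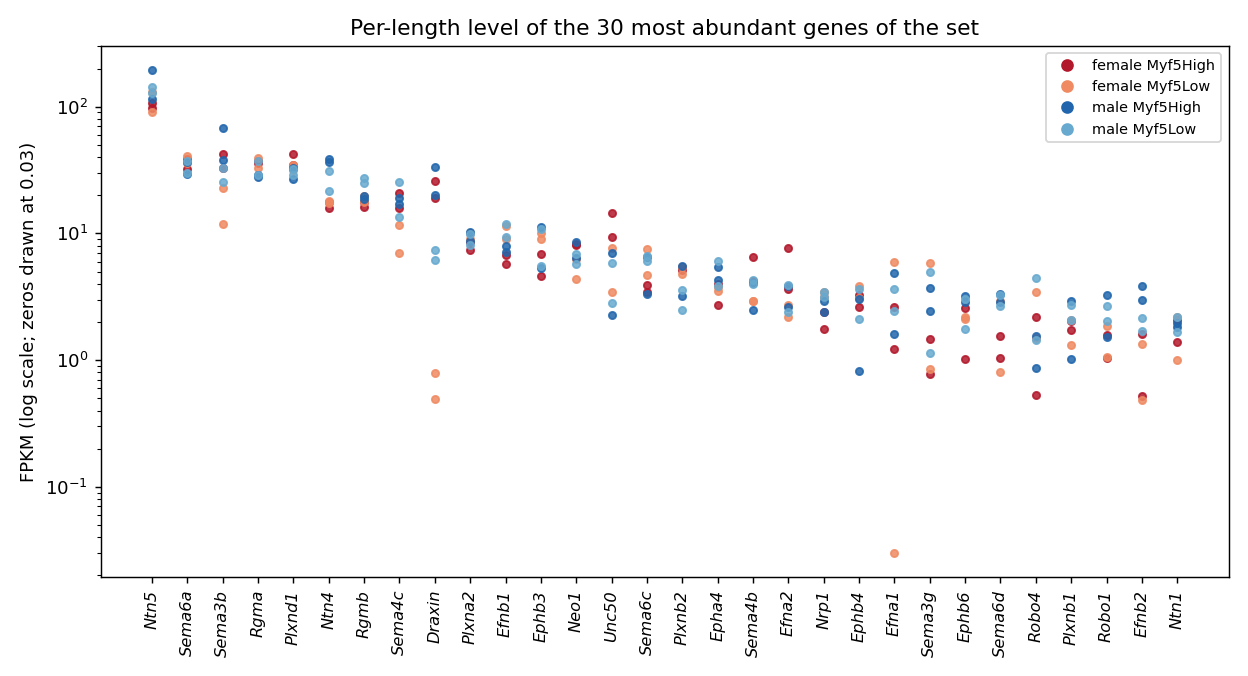
FPKM on a log axis of the 30 genes of the set with the highest mean, with 1 point per library coloured by group and zeros drawn at 0.03. Ntn5 is highest at a mean of 126 FPKM, 9 genes have a mean of 10 FPKM or more, and the female Myf5Low points of Draxin lie far below its other points.

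Per length, 35 of the 58 genes had a mean of at least 1 FPKM and 9 had at least 10: Ntn5, Sema6a, Sema3b, Rgma, Plxnd1, Ntn4, Rgmb, Sema4c and Draxin. Of these 9 genes, 8 encode ligands or ligand-like molecules and 1, Plxnd1, a receptor. Sema6a, Sema3b, Rgma and Plxnd1 were within the spread of their libraries at 33.0 to 35.1 FPKM, so their order is not resolved.

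The wider guidance machinery was read from a pair of lists, of 20 co-receptors and modulators and of 55 intracellular effectors. Of 18 tested co-receptors and modulators, 0 were called in either comparison in edgeR. An unadjusted p under 0.05 was found for 3 of the 18 in each, beside 1098 of all 11730 genes between the fractions and 1630 between the sexes. Of 51 tested effectors, 2 were called between the fractions, beside 1.2% of all genes, with a list median of -0.10 against -0.02 for all genes. In edgeR 10 of the 51 had an unadjusted p under 0.05, beside 1098 of all 11730 genes, and 20 of the 51 were positive. Srgap1, an effector that binds robo receptors and acts downstream of slits, was higher in Myf5High by 1.97 (SE 0.433, adjusted p 0.0266, edgeR). It stood at 10.01 and 21.4 CPM in female Myf5High, at 4.94 and 1.88 CPM in female Myf5Low, at 29.97 and 35.8 CPM in male Myf5High, and at 14.8 and 5.005 CPM in male Myf5Low.

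Chn2, a chimaerin that acts downstream of guidance receptors, was lower in Myf5High, with a difference of -4.76 (SE 0.884, adjusted p 0.00779, edgeR), with 0 to 2.95 CPM in Myf5High and 7.87 to 27.7 CPM in Myf5Low. In females Chn2 was also called (adjusted p 0.0474, edgeR), and blocking on the pool gave 0.0664. Ablim3, an actin-binding effector, was the 1 of 51 effectors called between the sexes, beside 1.65% of all genes, lower in females, with a difference of -1.40 (SE 0.318, adjusted p 0.0285, edgeR). Refits without single libraries were made for the guidance genes and not for these effectors.

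**Figure D4:**
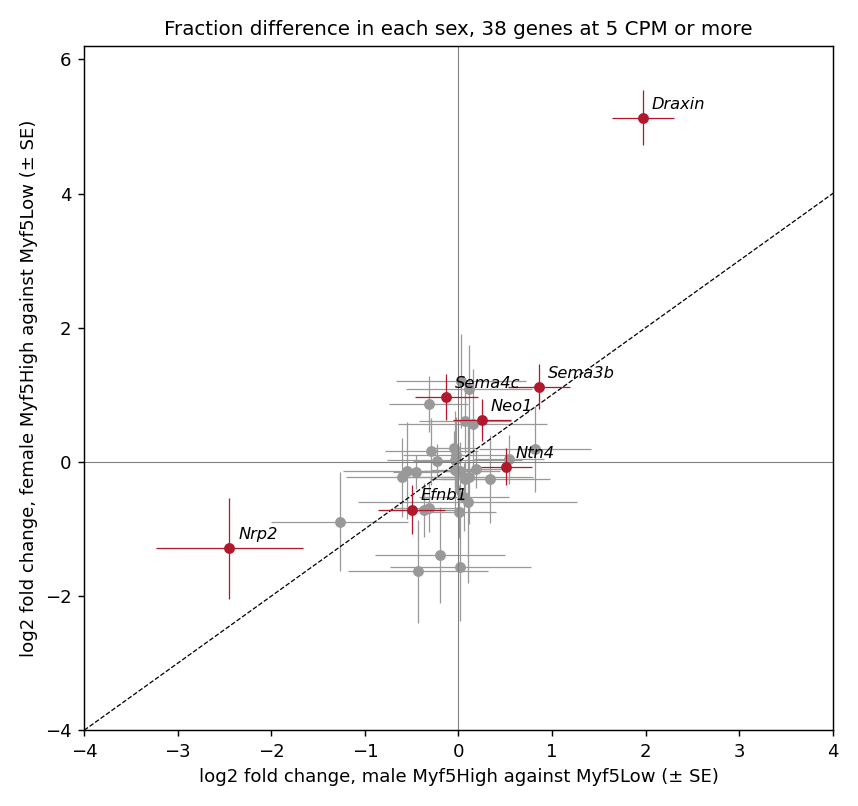
Log2 difference between Myf5High and Myf5Low in males (x axis) and in females (y axis), each with its SE, for the 38 tested genes with a mean of 5 CPM or more, where the dashed line marks equal values. Draxin, at 1.97 in males and 5.13 in females, stands apart from the other genes, and Sema3b lies near the dashed line at 0.86 and 1.12.

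Markers of other cells and of muscle differentiation were counted beside these differences. Myog and Mymk, of differentiating muscle cells, were the 2 of 12 commitment genes called, both lower in Myf5High, and the list had overlapping sums of 483 to 1207 CPM in Myf5High and 701 to 1359 CPM in Myf5Low. The difference was positive for 2 of the 12 (median -1.20), and 7 had an unadjusted p under 0.05, beside 1098 of all 11730 genes. Its median was -2.47 in females and 0.08 in males, with 2 of the 12 called lower in Myf5High in each sex in edgeR. Draxin also had its larger fitted difference in females, but it was positive in both sexes (5.13 in females and 1.97 in males), opposite to the list median in females. The interaction was called for 0 of these 12 genes in edgeR, with an unadjusted p under 0.05 for 3, and for Draxin it had an adjusted p of 0.0908. The stem cell list, which shares Cdh15 with the commitment list, summed to 7339 to 10000 CPM against 7657 to 8354 CPM. Myf5, Des and Calcr were the 3 of 13 called, all higher, beside 1.2% of all genes (Calcr not with the pool block, adjusted p 0.0711, edgeR). The cells were sorted by the Myf5 reporter, so the Myf5 call is no independent result. The difference was positive for 8 of the 13 (median 0.10). The neuronal list, nearly all of it Map2, summed to 339 to 487 CPM in Myf5High against 187 to 248 CPM in Myf5Low. Map2 was the 1 of 6 called, higher in Myf5High by 0.90 (SE 0.181, adjusted p 0.0136, edgeR), and Rbfox3, which defines neurons, was at most 0.323 CPM. The fibro-adipogenic list summed to 1655 to 2410 CPM against 1014 to 1553 CPM, with Dpt called higher, while Pdgfra, which defines these cells, was at most 4.32 CPM. Of its 8 tested genes, 6 had a positive difference (median 0.42), the sign of Draxin and Sema3b. In edgeR 4 of the 8 had an unadjusted p under 0.05, beside 1098 of all 11730 genes.

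Immune markers summed to 17.0 to 41.0 CPM in Myf5High against 43.9 to 90.1 CPM in Myf5Low, with C1qa called lower. Glial markers, mostly Ncam1, summed to 801 to 1053 CPM against 578 to 820 CPM, with 0 of 8 called and Sox10 at most 4.92 CPM. Apart from the sum, 1 of the 8 glial genes had a positive difference between the fractions, and their median was -0.79. Mural markers summed to 404 to 548 CPM against 402 to 783 CPM, with Acta2 called lower. Of the 9 mural genes, 3 had a positive difference (median -0.42). In edgeR 5 of the 9 had an unadjusted p under 0.05, beside 1098 of all 11730 genes. The part of these lists in the differences of Draxin and Sema3b was not tested. Within Myf5Low, where Draxin separated the sexes, the fibro-adipogenic sum was lower in females, as Draxin was (1222 and 1014 CPM against 1553 and 1304 CPM), with 0 of its 8 tested genes called in edgeR and 0 of 8 positive (median -0.31). The glial sum was higher in females (730 and 820 CPM against 578 and 661 CPM), while 2 of its 8 genes were positive (median -0.24). The endothelial sums of the sexes overlapped narrowly (470 and 604.5 CPM in females against 603 and 1077 CPM in males), and 2 of its 12 genes were positive (median -0.59), the direction of Draxin. None of the 12 was called there in edgeR, and 3 had an unadjusted p under 0.05, beside 842 of all 11730 genes. The sums of the stem cell, commitment, mural, immune and neuronal lists overlapped between the sexes in Myf5Low. Of the 6 neuronal genes, 0 were called in edgeR and 1 was positive (median -0.69), the direction of Draxin. The medians of the stem cell (0.05), commitment (0.12), mural (0.45) and immune (0.24) lists were positive. The part of the fibro-adipogenic, endothelial and neuronal lists in the Draxin difference was not tested.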

How the data were processed

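The authors deposited a table of raw counts, 1 row per Ensembl gene, for 8 libraries of polyadenylated RNA, sequenced as single reads per the labels' protocols. HTSeq counting on GRCm38 is named per the submitters' processing notes. The aligner, the annotation release and the strand setting are not given in the sources used here. Reads assigned to no gene, 42.0% to 45.3% per library, were left out. Identifiers matched GENCODE release M21 for 27441 of 27554 genes, which gave symbols, coordinates and exon lengths.

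Counts were tested in R 4.3.3 with edgeR 4.0.16 (filterByExpr, minimum count 10 and minimum total 15; TMM; glmQLFit with 1 mean per group over all 8 libraries; two-sided glmQLFTest). P-values were adjusted by Benjamini-Hochberg over 11730 genes. The alternatives were RLE scaling, no filter, a mean of at least 50 counts, DESeq2 1.42.0, the pool or the replicate number as a block, fits of 1 sex, summed pools, and each library left out in turn. P-values measure the spread between libraries of a group, each from a pool of 4 mice. For female against male averaged over the fractions, both libraries of a pool entered as separate units. Those p-values therefore do not measure the spread between pools alone, and only the fit of summed pools entered each pool once. The pool labels give the Myf5High and Myf5Low libraries of a pool the same number and were taken to mean the same mice, which the labels do not state outright. Over genes, deviations of paired libraries correlated at 0.03 in females and -0.00027 in males. The scripts were tested on simulated data.

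The guidance genes, the other lists and the tests were chosen with earlier results of these data known. Genes named with library values were those called in any comparison, Draxin and Sema3b, those at 5 CPM or more whose fractions or sexes did not overlap, and the 2 most abundant per length in each family. Sema4c, Sema3g, Sema6d, Sema3a and Ntn1 outside that rule were chosen after their values were seen. Floors of 3 counts cover counting error only. Proteins were not analysed here.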

Additional observations from a re-analysis of the deposited data

How the results depend on the processing

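Of 286 refits of 22 single-gene results, 258 kept the direction and the side of the threshold, 15 lost a call, 10 gained one and 3 changed sign. The sign changes were the Sema3b interaction without female Myf5Low replicate 2 (-0.16) and without male Myf5High replicate 1 (-0.11), and the Draxin sex difference in Myf5High without male Myf5High replicate 2 (0.17). With single libraries left out, the first ran from -0.16 to 0.78 and the second from -0.57 to 0.17. The cause was not tested for any of these, nor for the changes in counts below.

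Guidance genes called numbered 2 between the fractions, 1 in females, 1 in males, 0 for the interaction, 2 between the sexes, 0 for sex in Myf5High and 1 for sex in Myf5Low. With no filter on low counts the numbers were 2 in females, 1 for the interaction and 1 for sex in Myf5High, and the counts between the fractions and between the sexes were 3 each. DESeq2 gave 1 for the interaction and 1 for sex in Myf5High, the 4 male libraries alone gave 0 in males, and summed pools gave 1 between the sexes. With single libraries left out, the counts ran from 1 to 2 between the fractions, 0 to 1 in males, 0 to 1 for the interaction and 1 to 4 between the sexes.

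Over all genes, 141 were called between the fractions, 39 in females, 20 in males, 0 for the interaction, 194 between the sexes, 60 for sex in Myf5High and 24 for sex in Myf5Low. With no filter these were 291, 167, 111, 14, 477, 263 and 120, and in DESeq2 234, 111, 80, 2, 371, 197 and 64, in the same order. Fits of 1 sex alone gave 77 in females and 2 in males, from fewer libraries. With single libraries left out, the counts ran from 82 to 243 between the fractions, 9 to 117 in females, 8 to 74 in males, 0 to 8 for the interaction, 82 to 558 between the sexes, 24 to 210 for sex in Myf5High and 19 to 55 for sex in Myf5Low.

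With the pool as a replicate block, 2 guidance genes were called between the fractions and 1 in each sex, and no call of a guidance gene changed. The replicate number does not pair female with male mice, and as a block it left 135 genes called between the sexes and Ntn4 at an adjusted p of 0.0499 in edgeR. RLE scaling moved the median of all genes by less than 0.1 and changed no call of a guidance gene. With 2 pools per group and 3140361 to 4238427 counts per library, genes under about 5 CPM had wide errors, and a missed threshold there does not show that levels were alike.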
